A study of Rattus norvegicus with 9 samples.

Results

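The genes of 3 vasoactive signalling systems, endothelin, nitric oxide and bradykinin, were examined in rat dorsal root ganglia (DRGs). Of the 20413 genes in the deposited table, 10 were taken by symbol: the endothelin ligands Edn1 and Edn3, the endothelin receptors Ednra and Ednrb, the endothelin converting enzyme Ece1, the nitric oxide synthases Nos1, Nos2 and Nos3, and the bradykinin receptors Bdkrb1 and Bdkrb2. All 10 were found, each by 1 identifier. The RNA came from ipsilateral L4-6 DRGs, where the hind limb's sensory neurons have their cell bodies, of male Sprague Dawley rats perfused with saline on day 10. Every rat received the same anesthesia. Sham rats, labelled Con by the submitters, wore a cut O-ring that left blood flow open. CPIP rats, the chronic post-ischemia pain model of complex regional pain syndrome type I, had the hind paw made ischemic by a tight O-ring at the ankle for several hours and then reperfused. CPIP+EA rats had the same injury and daily electroacupuncture on both hind limbs for 10 days. There was no group of Sham rats with electroacupuncture. Each group had 3 libraries from 3 rats, and 9 libraries were analysed in all.

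Endothelins are short peptides cut from a larger precursor by endothelin converting enzyme. They act on the receptors encoded by Ednra and Ednrb, constrict vessels through the former, and excite nociceptors when applied to skin. Nitric oxide is made from arginine by a neuronal (Nos1), an inducible (Nos2) and an endothelial (Nos3) synthase, and relaxes vessels through guanylate cyclase and cGMP. Bradykinin is cut from kininogen in injured tissue. It acts on the constitutive receptor B2 (Bdkrb2), whereas the receptor B1 (Bdkrb1) is usually low and is induced by inflammation. All 3 systems are studied in ischemia and reperfusion pain, and Nos1 is a classical marker of injured sensory neurons.

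Of the 8 of these 10 genes that were tested, Nos1 had the smallest limma p-value between CPIP and Sham, so the sequence upstream of its start is shown. RefSeq entries of the start region matched 7 of the 10 genes, and Edn3, Nos2 and Bdkrb2 were not among them. The window shown is the 250 bases before the RefSeq start of Nos1, at chr12:44371838-44372087 on the minus strand of assembly GRCr8. Nos1 is known for alternative first exons, and the window belongs to 1 of its starts. Letters were searched on both strands, and matches are in capitals. TGANTCA is the AP-1 motif and TGACGTCA the cAMP response element (CRE), while ACGTG is the core of the hypoxia response element and TATAAA the TATA box.
Nos1: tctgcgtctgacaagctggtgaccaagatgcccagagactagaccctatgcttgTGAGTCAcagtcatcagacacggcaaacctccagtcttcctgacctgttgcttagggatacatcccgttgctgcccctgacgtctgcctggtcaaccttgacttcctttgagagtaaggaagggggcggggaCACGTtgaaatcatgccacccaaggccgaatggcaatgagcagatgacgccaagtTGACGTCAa
The AP-1 match began 196 bases before the start, the hypoxia response core 64 bases before it, on the opposite strand, and the CRE 9 bases before it, and no match overlapped another. Over 27457 windows of the same length, 6.36% held TGANTCA, 1.7% held TGACGTCA, 16.9% held ACGTG and 13.1% held TATAAA. Of the other 6 windows, that of Edn1 held TATAAA and ACGTG, and those of Ednra, Ednrb, Ece1, Nos3 and Bdkrb1 held none of the 4 motifs. Nor did the windows of Ecel1 and Gch1, further genes of the pathways described with their values after the 10 genes. A match describes these letters in this window and is no measurement of binding.

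Expression was deposited as FPKM, a fragment number corrected for transcript length and for library size, so that levels can be compared between genes per length. FPKM values hold no read counts, and the counting error of a low value is unknown. The 9 columns summed to between 445647 and 482940. Differences were tested as log2(FPKM + 0.5) by limma, in a single fit of all 9 libraries, for the 17187 genes with a mean of at least 0.1 FPKM. A differentially expressed gene (DEG) needed a Benjamini-Hochberg adjusted p under 0.01 together with a change of 1.5-fold or more in either direction, the threshold of the study. Fold changes on this scale are too small for genes of low FPKM. Each limma p-value sets a difference between groups against the spread between libraries within the groups, estimated from all 3 groups together.

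The order of the 10 genes by mean level over the 9 libraries ran from Ednrb (31.7 FPKM) and Ece1 (25.5 FPKM) through Bdkrb2 (7.31 FPKM), Ednra (2.74 FPKM), Nos3 (1.88 FPKM), Edn3 (1.78 FPKM), Nos1 (1.38 FPKM) and Edn1 (0.798 FPKM) to Bdkrb1 (0.0456 FPKM) and Nos2 (0.0267 FPKM). Ednrb lay above 86% of all genes in the table and Edn1 above 30%. The level of Ednrb exceeded that of Ece1 within each of the 9 libraries, although their ranges overlapped. The ranges of Ece1, Bdkrb2 and Ednra did not touch. Nos3 and Edn3 could not be ordered, with Nos3 the higher in 5 of the 9 libraries, and neither could Edn3 and Nos1, when pooled, with Edn3 the higher in 5. Edn3 was above Nos1 in the 3 Sham libraries without overlap, and in 2 of the 6 injured libraries. Both receptor systems were led by 1 receptor in listed level, Ednrb over Ednra and Bdkrb2 over Bdkrb1.

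**Figure D1:**
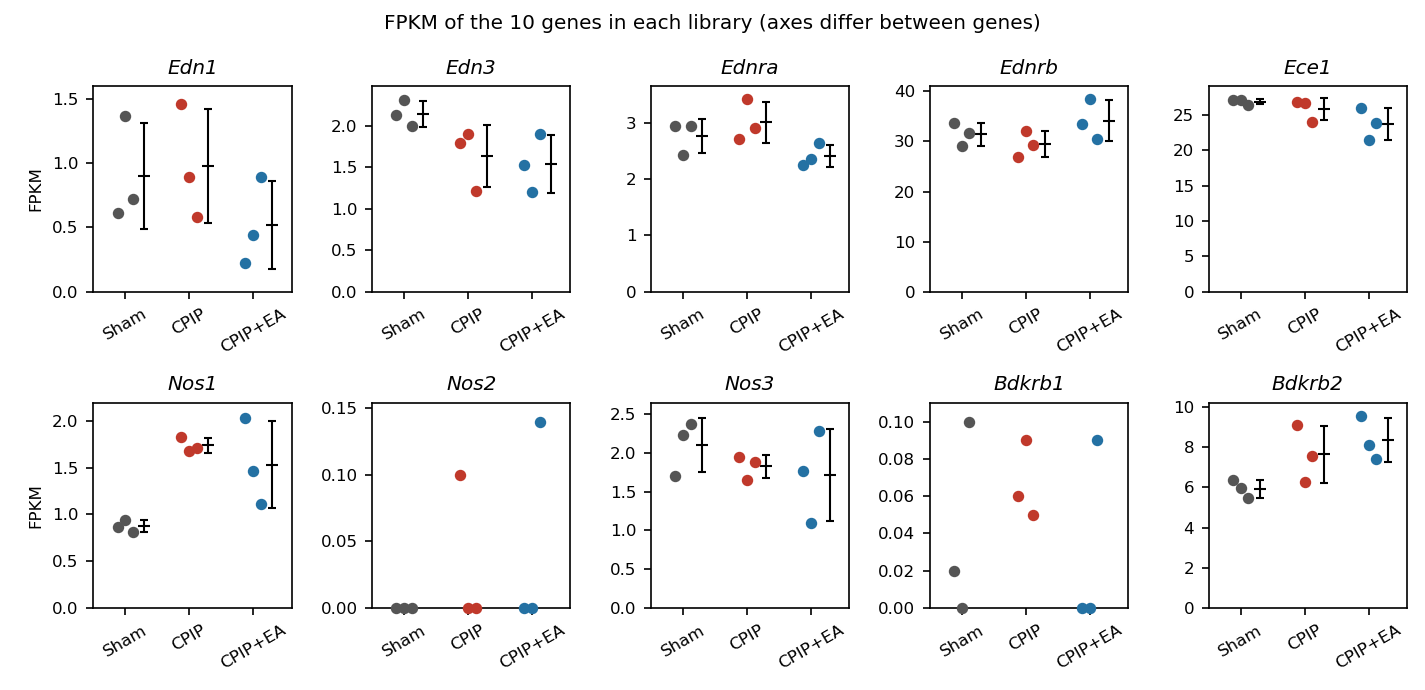
FPKM of the 10 genes in each library (y axis, a different range for each gene) in Sham (grey), CPIP (red) and CPIP+EA (blue). Points are libraries in the order of their replicate numbers, and the black bar beside them is the mean with its SD (n = 3), left out for Nos2 and Bdkrb1, which were listed at 0 in 7 and in 3 libraries. The 3 CPIP values of Nos1 (1.68 to 1.83 FPKM) lie above the 3 Sham values (0.81 to 0.94 FPKM).

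None of the 10 genes was a DEG in any comparison. Between CPIP and Sham, 61 of the 17187 genes tested (0.355%) were DEGs, and between CPIP+EA and Sham 83 (0.483%). Between CPIP+EA and CPIP 0 genes were DEGs in limma, with 738 genes at an unadjusted p under 0.05. With its own Q-values, which were not used here, the study reported more DEGs in CPIP against Sham and in CPIP+EA against CPIP. Nos2 and Bdkrb1 were below the filter and were not tested, which left 8 of the 10 genes. The median log2 fold change of these 8 was 0.0069 between CPIP and Sham, -0.11 between CPIP+EA and CPIP and -0.17 between CPIP+EA and Sham, beside medians over all tested genes of -0.0064, 0.012 and 0.0014.

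Nos1 (NCBI gene 24598), the neuronal nitric oxide synthase, had 0.87, 0.94 and 0.81 FPKM in Sham, 1.83, 1.68 and 1.71 FPKM in CPIP, and 2.03, 1.46 and 1.11 FPKM in CPIP+EA. All 6 injured libraries lay above the 3 Sham libraries, CPIP+EA replicate 3 by the least. The group means were 0.873 ± 0.0651, 1.74 ± 0.0794 and 1.53 ± 0.464 FPKM (SD, n = 3 each), so the mean of CPIP was 1.99 times and that of CPIP+EA 1.76 times the mean of Sham. From Sham to CPIP the log2 fold change of Nos1 was 0.71 (standard error 0.16, 95% interval 0.35 to 1.06), with an unadjusted limma p of 0.00157 and an adjusted p of 0.115. This placed Nos1 at rank 234 of the genes tested. The adjusted p lay between 0.0411 and 0.341 over the 20 alternative settings, and the unadjusted p was under 0.05 in all 20. Between CPIP+EA and Sham the log2 fold change was 0.54 (standard error 0.16, limma adjusted p of 0.194), and between CPIP+EA and CPIP it was -0.16 (95% interval -0.52 to 0.19, limma adjusted p of 0.996). The last value rested on the spread within CPIP+EA, since it was -0.33 without CPIP+EA replicate 1 and -0.0079 without CPIP+EA replicate 3.

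Markers of injured sensory neurons stood beside Nos1. The list of Atf3, Sprr1a, Npy, Gal, Vip, Sox11, Csf1 and Gap43 summed to 152 to 159 FPKM in Sham, 759 to 884 in CPIP, and 830 to 936 in CPIP+EA. All 8 of its genes were DEGs and higher both in CPIP and in CPIP+EA against Sham, beside 0.355% and 0.483% of all genes tested. Their median log2 fold changes were 2.84 and 3.10. This list was chosen with earlier results of these data known. Of the 8 general sensory neuron markers, among them Isl1, Prph, Avil and Scn10a, 0 were DEGs in any comparison, with 1, 0 and 3 at an unadjusted limma p under 0.05 in CPIP against Sham, CPIP+EA against CPIP and CPIP+EA against Sham, beside 8.66%, 4.29% and 12.2% of all genes. Their sum overlapped between the 3 groups, from 4135 FPKM in CPIP+EA replicate 3 to 5279 FPKM in CPIP+EA replicate 1. The part of these markers in the values of Nos1 was not tested. In ganglion RNA, fewer cells of a type and less RNA per cell cannot be told apart.

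Nos3 (NCBI gene 24600), the endothelial synthase, had 1.7, 2.23 and 2.37 FPKM in Sham, 1.94, 1.65 and 1.88 FPKM in CPIP, and 1.77, 1.1 and 2.28 FPKM in CPIP+EA. The 3 groups overlapped. In CPIP against Sham it had a log2 fold change of -0.16 (95% interval -0.60 to 0.29, limma adjusted p of 0.934), from -0.27 without Sham replicate 1 to -0.079 without Sham replicate 3. In CPIP+EA against CPIP the value was -0.10 (95% interval -0.55 to 0.35), and turned to 0.11 without CPIP+EA replicate 2, the lowest library. The 9 endothelial markers, among them Pecam1, Cdh5 and Kdr, summed to 72.0 to 104 FPKM in Sham, 81.5 to 93.4 in CPIP, and 75.6 to 106 in CPIP+EA, and 0 of them had an unadjusted p under 0.05 in any comparison, beside 8.66% of all genes in CPIP against Sham, 4.29% in CPIP+EA against CPIP and 12.2% in CPIP+EA against Sham.

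Nos2 (NCBI gene 24599), the inducible synthase of activated leukocytes and other cells, was listed at 0 in 7 of the 9 libraries. It was listed at 0.1 FPKM in CPIP replicate 1 and at 0.14 FPKM in CPIP+EA replicate 3. The latter library also had the highest sum of 8 neutrophil markers, among them S100a8 and Mpo, with 630 FPKM against 34.9 to 266 FPKM in the other 8 libraries. It had the highest sum of 6 erythroid markers too, 6262 FPKM against 723 to 4268 FPKM in the other 8. CPIP replicate 1 had a neutrophil sum of 157 FPKM, and CPIP replicate 2, with 266 FPKM, had Nos2 listed at 0. Whether these cells took part in the Nos2 value was not tested.

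The ratio of Nos1 to Nos3 within a library does not depend on how libraries are scaled. It is made of the values given above, and its genes were chosen with earlier results of these data known. It lay between 0.342 and 0.512 in Sham, between 0.910 and 1.02 in CPIP, and between 0.487 and 1.33 in CPIP+EA. CPIP was above Sham in every library, by 1.19 on the log2 scale, with an exact two-sided permutation p of 0.1, the smallest that 3 libraries against 3 allow. CPIP+EA overlapped with both other groups, and its log2 difference from CPIP was -0.079 (exact permutation p of 1), or 0.37 without CPIP+EA replicate 3. From Sham, the log2 difference of CPIP+EA was 1.11 (exact permutation p of 0.2). No ratio of Bdkrb2 to Bdkrb1 was formed, since Bdkrb1 was listed at 0 in part of the libraries. Over the 6 ratio comparisons made here, the smallest Benjamini-Hochberg adjusted value of the exact permutation p was 0.2.

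Bdkrb2 (NCBI gene 25245), the constitutive bradykinin receptor B2, had the highest level after Ednrb and Ece1, with 6.35, 5.98 and 5.46 FPKM in Sham, 9.11, 6.28 and 7.55 FPKM in CPIP, and 9.53, 8.1 and 7.39 FPKM in CPIP+EA. The CPIP+EA libraries lay above the Sham libraries, whereas CPIP replicate 2 fell within the range of Sham. The means were 5.93 ± 0.447, 7.65 ± 1.42 and 8.34 ± 1.09 FPKM (SD, n = 3 each), or 1.29 times Sham in CPIP and 1.41 times Sham in CPIP+EA. Against Sham, CPIP had a log2 fold change of 0.33 (standard error 0.14, limma unadjusted p of 0.0420 and adjusted p of 0.546), from 0.20 without CPIP replicate 1 to 0.45 without CPIP replicate 2. CPIP+EA against Sham had 0.45 (standard error 0.14, limma unadjusted p of 0.00966 and adjusted p of 0.214). For CPIP+EA against CPIP it was 0.13 (95% interval -0.19 to 0.44), from 0.00011 without CPIP replicate 2 to 0.25 without CPIP replicate 1. Both fold changes against Sham, which share the 3 Sham libraries, were positive, and neither passed the threshold.

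Bdkrb1 (NCBI gene 81509), the inducible receptor B1, was listed at 0.02, 0 and 0.1 FPKM in Sham, at 0.06, 0.09 and 0.05 FPKM in CPIP, and at 0, 0 and 0.09 FPKM in CPIP+EA. No library exceeded 0.1 FPKM, and the groups overlapped. No fold change is given for Nos2 and Bdkrb1, which were listed at 0 in part of the libraries. The table also lists 5 of 74 ribosomal protein genes, which every cell uses, at 0 in at least 1 library, among them Rps20 at 0 in 8 of the 9 libraries. A listed 0 can thus be a failed estimate and does not show that Nos2 or Bdkrb1 was absent.

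Edn1 (NCBI gene 24323), the precursor of endothelin-1, the ligand best known from vessels, had 0.61, 1.37 and 0.72 FPKM in Sham, 1.46, 0.89 and 0.58 FPKM in CPIP, and 0.22, 0.44 and 0.89 FPKM in CPIP+EA. It was the most variable tested member, and all groups overlapped. In CPIP against Sham the log2 fold change was 0.072 (standard error 0.31, limma adjusted p of 0.983), with a sign that depended on single libraries, from -0.15 without CPIP replicate 1 to 0.30 without Sham replicate 2. CPIP+EA against CPIP gave -0.55 (95% interval -1.24 to 0.14, limma unadjusted p of 0.107 and adjusted p of 0.996). This value was -0.80 without CPIP+EA replicate 3 and -0.32 without CPIP replicate 1, and it was -0.87 with a pseudocount of 0.1.

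Edn3 (NCBI gene 366270), the precursor of endothelin-3, which acts chiefly on Ednrb, had 2.13, 2.31 and 2 FPKM in Sham, 1.8, 1.9 and 1.21 FPKM in CPIP, and 1.53, 1.2 and 1.9 FPKM in CPIP+EA. All 6 injured libraries were below the 3 Sham libraries. The means were 2.15 ± 0.156, 1.64 ± 0.373 and 1.54 ± 0.350 FPKM (SD, n = 3 each). CPIP against Sham gave a log2 fold change of -0.32 (standard error 0.17, limma unadjusted p of 0.0879 and adjusted p of 0.685), and -0.17 without CPIP replicate 3. In CPIP+EA against Sham it was -0.39 (limma unadjusted p of 0.0480 and adjusted p of 0.405), and in CPIP+EA against CPIP -0.063, with a sign that turned without CPIP replicate 2 or without CPIP+EA replicate 2. With Edn3 lower and Nos1 higher in each injured library than in each Sham library, these were the only 2 of the 8 tested genes in which CPIP and Sham did not overlap, beside 15.9% of all genes tested.

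The receptor Ednra (NCBI gene 24326), typical of smooth muscle and also found on nociceptors, had 2.95, 2.43 and 2.95 FPKM in Sham, 2.72, 3.43 and 2.91 FPKM in CPIP, and 2.25, 2.37 and 2.64 FPKM in CPIP+EA. The CPIP+EA libraries were all below the CPIP libraries, the nearest at 2.64 against 2.72 FPKM, and overlapped with Sham. Against CPIP, CPIP+EA had a log2 fold change of -0.27 (95% interval -0.54 to 0.0028, limma unadjusted p of 0.0519 and adjusted p of 0.996), from -0.33 without CPIP replicate 1 to -0.18 without CPIP replicate 2. CPIP replicate 2, with the highest Ednra value, also had the highest sum of 5 skeletal muscle markers, 97.7 FPKM against 6.61 to 30.2 FPKM in the other 8 libraries, whose part in the Ednra value was not tested. Ednra was the only 1 of the 8 tested genes whose CPIP+EA and CPIP libraries did not overlap, beside 8.23% of all genes. Between CPIP and Sham the log2 fold change was 0.10 (95% interval -0.17 to 0.37), from 0.020 without CPIP replicate 2 to 0.16 without CPIP replicate 1. The 8 markers of pericytes and smooth muscle, among them Acta2 and Pdgfrb, summed to 118 to 141 FPKM in Sham, 90.7 to 140 in CPIP, and 95.3 to 134 in CPIP+EA. In CPIP+EA against CPIP, 7 of these 8 had a negative log2 fold change and 0 an unadjusted p under 0.05, beside 4.29% of all genes. Cspg4 alone was lower at an unadjusted limma p under 0.05 in CPIP against Sham (p of 0.0221, beside 8.66%) and in CPIP+EA against Sham (p of 0.00221, beside 12.2%), without overlap. Their part in the Ednra value was not tested.

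Ednrb (NCBI gene 50672), the receptor found on glia and endothelium, had 33.61, 29.03 and 31.71 FPKM in Sham, 26.94, 32.16 and 29.32 FPKM in CPIP, and 33.48, 38.55 and 30.54 FPKM in CPIP+EA. The highest library was CPIP+EA replicate 2, and the groups overlapped. Compared with CPIP, CPIP+EA had a log2 fold change of 0.21 (95% interval -0.018 to 0.43, limma unadjusted p of 0.0668 and adjusted p of 0.996), from 0.12 without CPIP+EA replicate 2 to 0.28 without CPIP+EA replicate 3. Between CPIP and Sham it was -0.093 (95% interval -0.32 to 0.13), from -0.16 without CPIP replicate 2 to -0.031 without CPIP replicate 1. The satellite glia markers Fabp7, Kcnj10, Glul, Slc1a3 and Cdh19 summed to 208 to 238 FPKM in Sham, 199 to 226 in CPIP, and 213 to 237 in CPIP+EA, and 0 of these 5 were DEGs, with 0, 2 and 1 at an unadjusted limma p under 0.05 in CPIP against Sham, CPIP+EA against CPIP and CPIP+EA against Sham, beside the same 8.66%, 4.29% and 12.2% of all genes. The 2 in CPIP+EA against CPIP had opposite signs, with log2 fold changes of 0.71 for Fabp7 and -0.21 for Glul. The Schwann cell markers Prx, Mag, Mbp, Pmp22 and Ncmap summed to 3359 to 5375 FPKM in Sham, 3333 to 5507 in CPIP, and 2335 to 4794 in CPIP+EA. All 5 had a negative log2 fold change in CPIP+EA against CPIP (median -0.44), and 1 an unadjusted p under 0.05, beside the 4.29% of all genes. The part of the glial markers in the Ednrb values was not tested.

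The ratio of Ednrb to Ednra, chosen with earlier results of these data known and made of the values just given, was 10.7 to 11.9 in Sham, 9.38 to 10.1 in CPIP, and 11.6 to 16.3 in CPIP+EA. CPIP was below Sham in every library, by 0.21 in mean log2 ratio, and CPIP+EA was above CPIP in every library, by 0.53. Each had an exact two-sided permutation p of 0.1, the smallest that 3 against 3 allow, and an adjusted value of 0.2 over the 6 ratio comparisons. Both comparisons share the 3 CPIP libraries. CPIP+EA and Sham overlapped, with a difference of 0.31 (exact permutation p of 0.2).

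Ece1 (NCBI gene 94204), which cuts the endothelin precursors, was the steadiest member, with 27.17, 27.12 and 26.47 FPKM in Sham, 26.84, 26.7 and 24.05 FPKM in CPIP, and 25.97, 21.46 and 23.82 FPKM in CPIP+EA. The 3 CPIP+EA libraries were below the 3 Sham libraries, and CPIP overlapped with both. The means were 26.9 ± 0.391, 25.9 ± 1.57 and 23.8 ± 2.26 FPKM (SD, n = 3 each). From Sham to CPIP+EA the log2 fold change was -0.18 (95% interval -0.36 to -0.0075, limma unadjusted p of 0.0426 and adjusted p of 0.388), and -0.11 without CPIP+EA replicate 2. From Sham to CPIP it was -0.058, and -0.0078 without CPIP replicate 3. From CPIP to CPIP+EA it was -0.12 (95% interval -0.30 to 0.051), from -0.19 without CPIP+EA replicate 1 to -0.054 without CPIP+EA replicate 2.

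**Figure D2:**
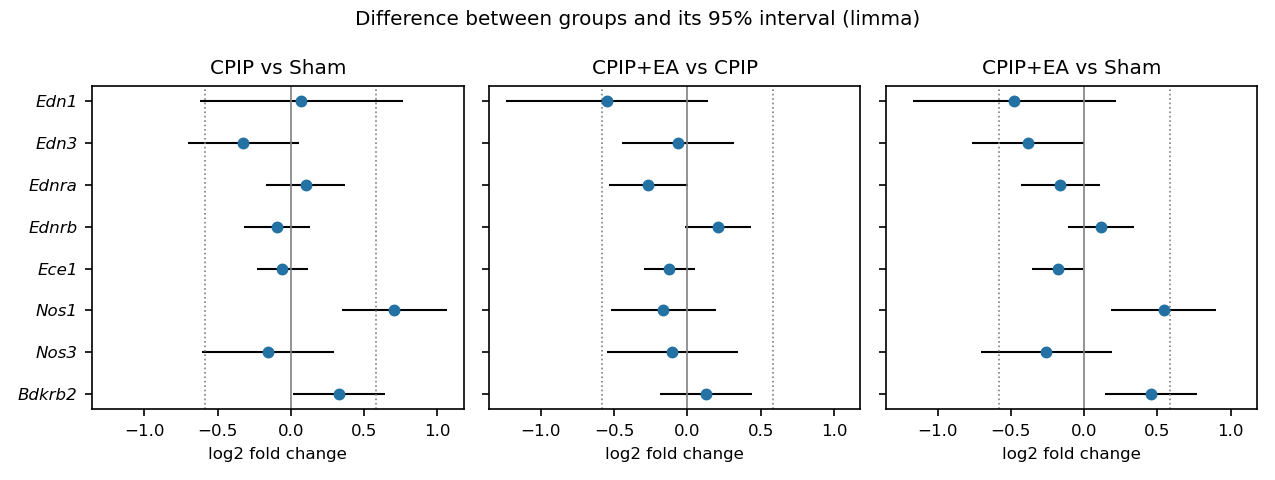
Log2 fold change of the 8 tested genes (x axis, log2(FPKM + 0.5) scale) in the 3 comparisons, with the 95% interval from limma as a line. The dotted lines mark a change of 1.5-fold in either direction and the solid line marks no change. Nos1 lies past 1.5-fold between CPIP and Sham (0.71), and the intervals of all 8 genes between CPIP+EA and CPIP include 0.

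Counted together, Nos1 and Bdkrb2, 2 of the 8 tested genes, were at an unadjusted limma p under 0.05 in CPIP against Sham, beside 8.66% of all genes tested. Nos1 alone was left without Sham replicate 2 or 3, without CPIP replicate 1 or 3, and without CPIP+EA replicate 2, beside 6.55% to 8.45% of all genes. In CPIP+EA against Sham 4 were, beside 12.2% of all genes. Nos1 and Bdkrb2 were higher, beside 6.59% of all genes in that direction, and Edn3 and Ece1 lower, beside 5.63%. The same 4 genes had CPIP+EA and Sham libraries that did not overlap, beside 16.2%. The 4 became 2, Nos1 and Bdkrb2, without any 1 of the Sham libraries, without CPIP replicate 1 or 2, or without CPIP+EA replicate 2, beside 9.68% to 11.6% of all genes. Without CPIP+EA replicate 3 there were 5 (Bdkrb2, Edn1, Edn3, Nos1 and Nos3), beside 13.8% of all genes, so that Ece1 was lost while Edn1 and Nos3 were added. In CPIP+EA against CPIP 0 were, beside 4.29% of all genes. Without CPIP+EA replicate 3, the library with the highest neutrophil and erythroid sums, 3 were (Edn1, Ednra and Ednrb, beside 7.27% of all genes). Without CPIP+EA replicate 1, 2 others were (Ece1 and Nos1, beside 6.82%). It was 1 without Sham replicate 2 (Ednra, beside 3.8%), CPIP replicate 1 (Ednra, beside 3.2%), CPIP replicate 2 (Ednrb, beside 2.92%) or CPIP replicate 3 (Edn1, beside 5.36%). The count for CPIP+EA against CPIP thus moved with single libraries of all 3 groups, to different genes.

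Further genes of the same pathways came from 3 lists. The endothelin list had 8 genes, all tested. Of them 1, Ecel1, was a DEG in CPIP and in CPIP+EA against Sham, beside 0.355% and 0.483% of all genes tested. Ecel1 was also its only gene with an unadjusted limma p under 0.05 in the same comparisons, beside 8.66% and 12.2% of all genes. Ecel1 had 1.1, 1.08 and 0.91 FPKM in Sham, 5.27, 5.54 and 6.31 FPKM in CPIP, and 6.13, 7.06 and 4.15 FPKM in CPIP+EA. It rose 5.54-fold in mean FPKM from Sham to CPIP, with a log2 fold change of 2.02 (standard error 0.17, limma adjusted p of 0.000781). Over the 20 alternatives this p ranged from 8.00e-05 to 0.00650, past the threshold in each. In CPIP+EA against CPIP its log2 fold change was -0.0087 (limma adjusted p of 0.998), and 0.19 without CPIP+EA replicate 3, its lowest injured library. Ecel1 resembles endothelin converting enzymes in sequence but is known as a neuronal peptidase induced by nerve damage, not as a source of endothelin. The other members of the list, among them Ece2 (16.4, 18.3 and 17.0 FPKM in Sham) and the endothelin-degrading peptidase Mme, were not DEGs. Edn2, another endothelin ligand, was at most 0.38 FPKM in any library. Its log2 fold change between CPIP+EA and CPIP was 0.34 (limma unadjusted p of 0.0472 and adjusted p of 0.996). The 19 alternatives that kept Edn2 gave 0.20 to 0.83. Edn2 alone, 1 of the 8 genes, had an unadjusted limma p under 0.05 in CPIP+EA against CPIP, beside 4.29% of all genes. The list's median log2 fold changes were -0.047 in CPIP against Sham, 0.0073 in CPIP+EA against CPIP and -0.0069 in CPIP+EA against Sham, close to those of all tested genes.

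Of the nitric oxide list, 24 symbols are reported, of which 22 were in the table and 21 were tested. Among these 21 genes, 0 were DEGs in any comparison, with 1, 3 and 5 at an unadjusted limma p under 0.05 in CPIP against Sham, CPIP+EA against CPIP and CPIP+EA against Sham, beside 8.66%, 4.29% and 12.2% of all genes. Their median log2 fold changes were -2.93e-05, 0.0024 and 0.0099 in the same order.

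Gch1, the rate-limiting enzyme of tetrahydrobiopterin, the cofactor of all nitric oxide synthases, had 1.52, 1.77 and 1.42 FPKM in Sham, 3.23, 2.03 and 3.92 FPKM in CPIP, and 3.39, 4.88 and 3.81 FPKM in CPIP+EA. All 6 injured libraries were above the Sham libraries, with means of 1.57 ± 0.180, 3.06 ± 0.956 and 4.03 ± 0.768 FPKM (SD, n = 3 each). The limma adjusted p was 0.232 between CPIP and Sham (log2 fold change 0.75, standard error 0.21) and 0.0361 between CPIP+EA and Sham (log2 fold change 1.12, standard error 0.21), so that neither passed. Spr, the last enzyme of the same synthesis, had 16.48, 17.81 and 21.85 FPKM in Sham and 24.42, 35.76 and 25.35 FPKM in CPIP+EA, with a log2 fold change of 0.58 (limma adjusted p of 0.299), and 25, 17.33 and 29.78 FPKM in CPIP. For Pts, the enzyme between Gch1 and Spr, and for Gchfr, the feedback regulator of Gch1, the CPIP+EA libraries lay above the CPIP libraries, with log2 fold changes of 0.28 and 0.32 (limma unadjusted p of 0.0178 and 0.0254, adjusted p of 0.996 each).

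On the opposite side, Slc7a2, a transporter of arginine, had 9.55, 9.26 and 9.53 FPKM in CPIP and 7.78, 7.33 and 8.23 FPKM in CPIP+EA, without overlap, and 9.78, 8.9 and 10.45 FPKM in Sham. Its log2 fold change between CPIP+EA and CPIP was -0.27 (limma unadjusted p of 0.00820 and adjusted p of 0.996), and between CPIP+EA and Sham -0.30 (limma adjusted p of 0.140). Downstream of nitric oxide, Pde5a degrades cGMP and Gucy1a2 encodes a subunit of guanylate cyclase. Between CPIP+EA and Sham their log2 fold changes were -0.51 and -0.44 (limma unadjusted p of 0.0209 and 0.0417, adjusted p of 0.298 and 0.385), and these 2 groups overlapped. Between CPIP and Sham they were -0.38 and -0.25 (limma unadjusted p of 0.0702 and 0.207). Here the CPIP libraries lay below the Sham libraries for both genes, beside 15.9% of all genes tested without overlap. The value of Gucy1a2 between CPIP+EA and Sham was -0.27 without CPIP+EA replicate 2.

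**Figure D3:**
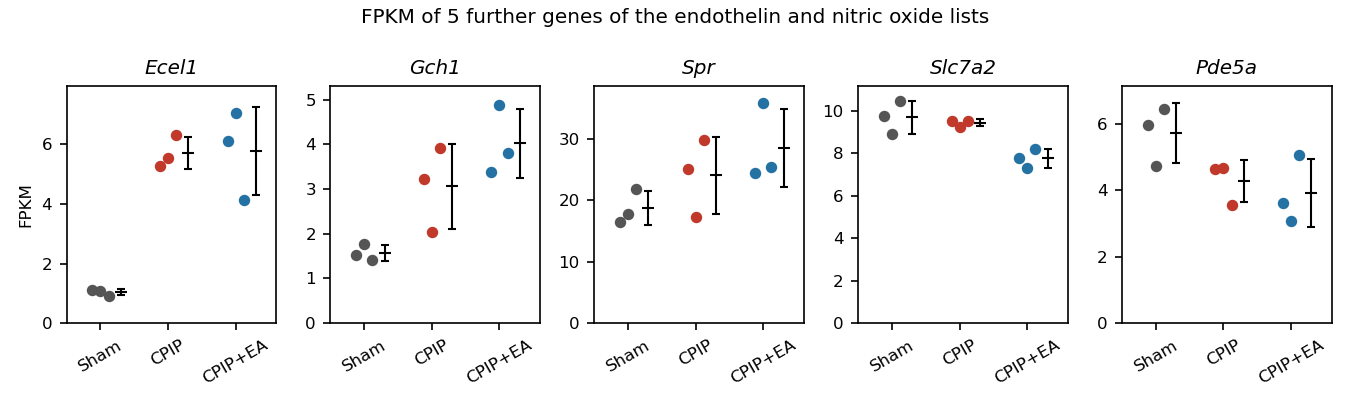
FPKM of 5 further genes of the endothelin and nitric oxide lists in each library (y axis, a different range for each gene) in Sham (grey), CPIP (red) and CPIP+EA (blue), with the mean and SD (n = 3) as a black bar. Ecel1, the DEG among them, is higher in all 6 injured libraries than in Sham, and the 3 CPIP+EA values of Slc7a2 (7.33 to 8.23 FPKM) lie below the CPIP values (9.26 to 9.55 FPKM).

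The kallikrein-kinin list had 18 symbols, of which 13 were in the table and 9 were tested, and 0 were DEGs in any comparison. The kininogen genes Kng1 and Kng1l1, close copies between which reads may be divided, were at most 0.25 and 0.2 FPKM in any library. The kinin-degrading peptidase Ace was between 1.21 FPKM in CPIP+EA replicate 2 and 2.29 FPKM in CPIP+EA replicate 3. Xpnpep1, an aminopeptidase that inactivates bradykinin, had 32.37, 31.28 and 30.63 FPKM in Sham, 33.71, 33.65 and 34 FPKM in CPIP, and 33.33, 33.91 and 34.65 FPKM in CPIP+EA. All 6 injured libraries lay above Sham. The log2 fold change was 0.10 from Sham to CPIP (limma unadjusted p of 0.0578) and 0.11 from Sham to CPIP+EA (limma unadjusted p of 0.0451 and adjusted p of 0.396). At an unadjusted p under 0.05, no other gene of the list was counted in any comparison, so that 0, 0 and 1 of 9 stood beside 8.66%, 4.29% and 12.2% of all genes. The median log2 fold changes of the 9 genes were 0.083, 0.0073 and -0.013 in the 3 comparisons.

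**Figure D4:**
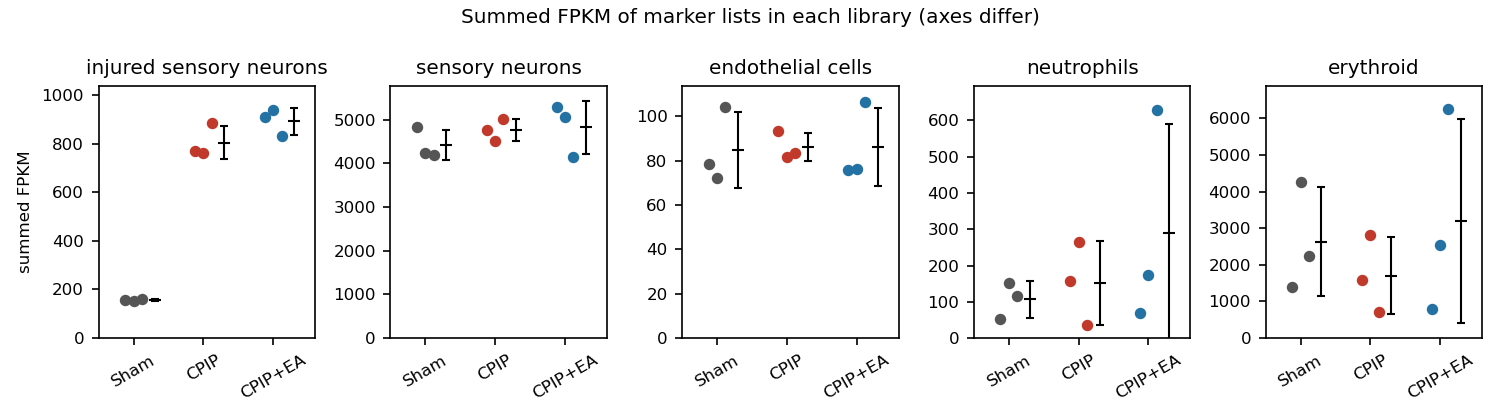
Summed FPKM of 5 marker lists in each library (y axis, a different range for each list) in Sham (grey), CPIP (red) and CPIP+EA (blue), with the mean and SD (n = 3) as a black bar, which is drawn down to 0 where the SD exceeds the mean. The injured sensory neuron sum separates Sham (152 to 159) from the other groups (759 to 936), and CPIP+EA replicate 3 has the highest neutrophil sum (630) and erythroid sum (6262).

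Of all genes tested, Zfp697, Trim7 and Cnksr1 had the profile most like that of Nos1 over the 9 libraries, with Pearson r of 0.977, 0.968 and 0.958 on log2(FPKM + 0.5). For Ednrb, the gene with the highest level, they were Pcdhb20, Fbxo48 and Dab1, with 0.952, 0.947 and 0.904. These are the highest values among all tested genes over 9 points that share their libraries, and are given as a description only.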

How the data were processed

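RNA-Seq of ipsilateral L4-6 DRGs was carried out by the authors on 9 libraries, 3 each of Sham, CPIP and CPIP+EA. SOAPnuke was used by the authors to filter reads. The authors deposited 1 FPKM value, with 2 decimals, for each gene in each library. No counts were used, so the number of reads behind a value is unknown. The aligner, the genome build and the annotation are not given in the sources used here. The table the authors deposited also holds their own comparisons (a log2 ratio, a P-value and a Q-value per group pair), which were not used.

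Libraries were assigned to groups by their titles and descriptions. log2(FPKM + 0.5) was fitted with limma 3.58.1 in R 4.3.3 (eBayes with a mean-variance trend, two-sided) for 17187 genes with a mean of at least 0.1 FPKM, with all 9 libraries and no covariate, and p-values were adjusted by the Benjamini-Hochberg method over all genes tested. Ratios of 2 genes were compared with exact permutation tests. Alternative settings changed the pseudocount (0.1 or 1) and the filter (none, or a mean of 1 FPKM), or applied quantile normalization, a TPM scale, median centring, no trend or a robust trend, a replicate block, only the 2 groups compared, and each library left out in turn. DEGs were also counted at an adjusted p under 0.05 with no fold limit, which changes both limits together. Sequences came from RefSeq (GRCr8). Tables and figures were made with Python 3.11.15, pandas 2.3.3, numpy 2.4.6 and matplotlib 3.10.9.

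The 10 genes and all lists were chosen with earlier results of these data known. Named beside the 10 genes are those of the 3 pathway lists with an unadjusted p under 0.05 in any comparison, the 3 genes most like Nos1 (smallest p over the 3 groups) and Ednrb (highest level), and the list members cited as examples, which were chosen after their values were seen. Some genes of the nitric oxide and glial lists are not reported here and were left out of the counts and sums of these lists.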

Additional observations from a re-analysis of the deposited data

How the results depend on the processing

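Of 477 values of the 24 fold changes of the tested members under the alternatives, 471 kept their direction and 0 passed the threshold. The 6 that turned came from leaving out 1 library: Edn1 between CPIP and Sham lay between -0.15 and 0.30, Edn3 between CPIP+EA and CPIP between -0.22 and 0.063, and Nos3 in the same comparison between -0.28 and 0.11. The log2 difference of the ratio of Nos1 to Nos3 between CPIP+EA and CPIP ranged from -0.36 to 0.37 with 1 library left out, and was positive without CPIP+EA replicate 3. With 1 library left out, Slc7a2 between CPIP and Sham ranged from -0.093 to 0.017 and Ecel1 between CPIP+EA and CPIP from -0.16 to 0.19, and the latter was 0.0028 with median centring. Of the members with an unadjusted p under 0.05, 2 between CPIP and Sham became 1 without a filter, with quantile normalization, on the TPM scale and with median centring, and 0 between CPIP+EA and CPIP became 1 on the TPM scale and without the trend. The 4 between CPIP+EA and Sham became 3 with a pseudocount of 0.1, no filter, a mean of at least 1 FPKM, median centring, no trend, the replicate block and only the 2 groups compared. With 1 library left out, these counts were 1 to 2 between CPIP and Sham, 0 to 3 between CPIP+EA and CPIP and 2 to 5 between CPIP+EA and Sham, beside 6.55% to 10.5%, 2.92% to 7.27% and 9.68% to 13.8% of all genes.

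The number of DEGs between CPIP and Sham, 61, was 40 without a filter, 122 at an adjusted p under 0.05 with no fold limit, and 30 to 62 with 1 library left out. Between CPIP+EA and Sham, 83 became 55, 226 and 35 to 82, and 46 with only the 2 groups compared. Between CPIP+EA and CPIP, 0 became 1 with only the 2 groups compared and 0 to 2 with 1 library left out. With the replicate number as a block, 26 DEGs were left in CPIP against Sham and 42 in CPIP+EA against Sham. The numbers were not taken to pair the libraries, since same-numbered libraries deviated from their group means with correlations between -0.24 and 0.30 and 2 of 9 correlated best with their own number. The cause of these changes was not tested. A mean filter of 1 FPKM removed Edn1. The number of reads behind low FPKM values is unknown, which limits what can be said of Nos2, Bdkrb1 and Edn2.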
